A study of Mus musculus with 27 samples.

Results

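Solute carriers are membrane proteins that move sugars, amino acids, ions, metals, vitamins and metabolic intermediates across cell and organelle membranes. They are numbered by family, and the families differ in what they carry and in which membrane they sit. In brain they feed glucose and amino acids across the vessel wall, set the chloride and pH of neurons and glia, load zinc into vesicles, and exchange nucleotides and metabolites with mitochondria. The carriers described here are those outside neurotransmission. A probe set, the unit measured on these arrays, was a member where the platform annotation gave it a symbol that starts with Slc and a digit. The families of transmitter transport (Slc1a, Slc6a, Slc17a, Slc18a and Slc32a) were left out. The rule used no measured value. It found 161 probe sets for 132 genes, out of 12422 probe sets and 8251 named genes. Of the 161, 1 set was annotated to a pair of Slc22a genes at once and is not named. The symbol rule also took in 3 genes whose products are not carriers: Slc4a1ap, Slc9a3r1 and Slc9a3r2.

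Whole brain RNA was compared between untreated mice of 2 inbred strains, written C57BL/2 and DBA/2J in the labels and called C57 and DBA here. The arrays used were 5 of C57 and 4 of DBA, 1 per animal, with a strain and a number as title and no letter. The strain rests on these titles, since the description of every array, those titled DBA included, gives C57 1 as its other name. The mice were 10 weeks old. The C57 mice were males, and the sex of the DBA mice is not given in the labels, so strain and sex cannot be told apart where the sexes differ. No transgene, deletion or drug is named, and each strain is an inbred line of its own. RNA of a whole brain mixes neurons, glia, vessels, choroid plexus and blood, so fewer cells of a type and less RNA per cell cannot be told apart in any value below.

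The values are deposited array intensities on a linear scale. With 2% of the values trimmed at each end, every array averaged 500.3, and array medians ran from 160 to 198. Levels are given as these intensities, and no probe set is ranked against another, since probe sets differ in brightness by design. Differences are DBA minus C57 on the log2 scale ± the standard error of the limma fit, and a fold is the ratio of geometric means. The dimmest 25% of probe sets, with a mean under an intensity of 35.4, were not tested. Adjusted p-values are Benjamini-Hochberg values over 9316 probe sets, with 0.05 as the threshold. Of the members, 129 probe sets for 114 genes were tested. The other 32 were dim, with strain means up to 38.4, and for 18 genes no set was bright enough. The precision followed the brightness: the median standard error of a member's difference was 0.33 for 34 tested sets with a mean under 100, 0.16 for 50 sets between 100 and 500, and 0.13 for 45 brighter sets.

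Few of the carriers outside neurotransmission differed between the strains beyond the spread of the animals. Of the 129 tested sets 1 passed the threshold, that of Slc25a17, which was lower in DBA, and 0 were higher. This is 0.775% of the members, against 2.50% of all probe sets tested on the platform, or 1.61% lower and 0.891% higher. At an unadjusted p under 0.05, 15 members (11.6%) differed, 7 lower and 8 higher, against 12.2% of all probe sets, so that share lay near the background. The strains did not overlap at 7 member sets (5.43%), against 6.45% of all sets. With a trended, robust prior in limma, an alternative also quoted for the classes below, 2 members passed, against 3.18% of all sets. The median log2 difference was 0.02 over the members and 0.01 over all probe sets tested, and the median size of a difference was 0.14 and 0.15. Of the members 55 of 129 sets lay below 0, against 4496 of 9316 of all sets tested.

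**Figure D1:**
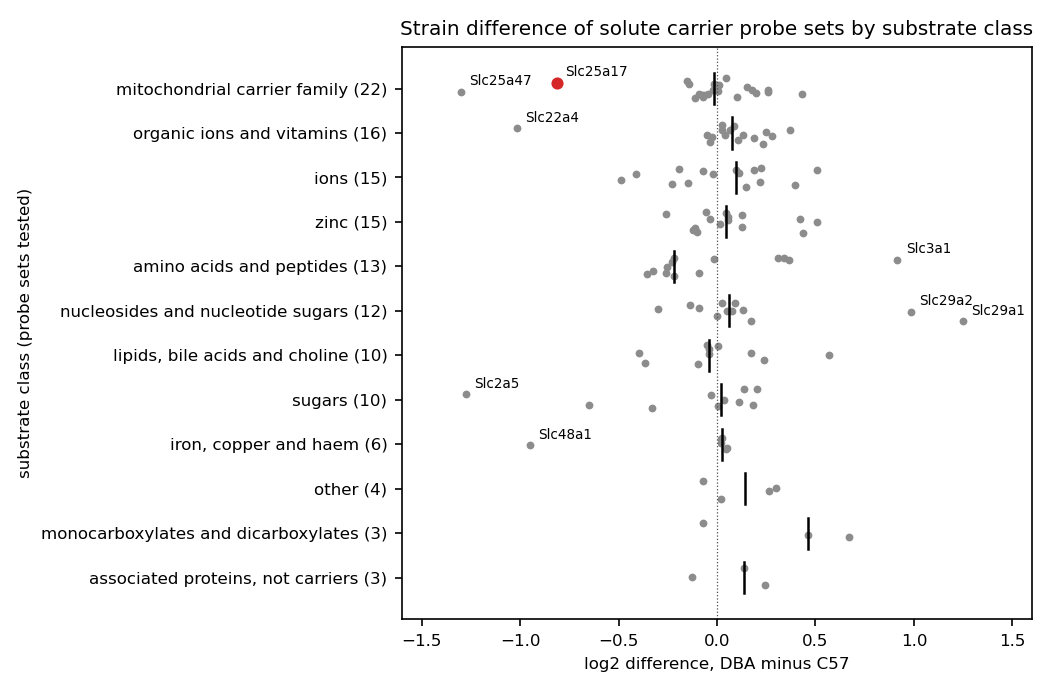
Log2 difference (DBA minus C57) of each of the 129 tested solute carrier probe sets, in rows by substrate class with the number of sets tested; black bars are class medians and the red point is the set with an adjusted p under 0.05. Class medians lie between -0.22 for amino acids and peptides and 0.46 for the 3 monocarboxylate carriers, and Slc25a17 is the 1 called set.

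**Figure D2:**
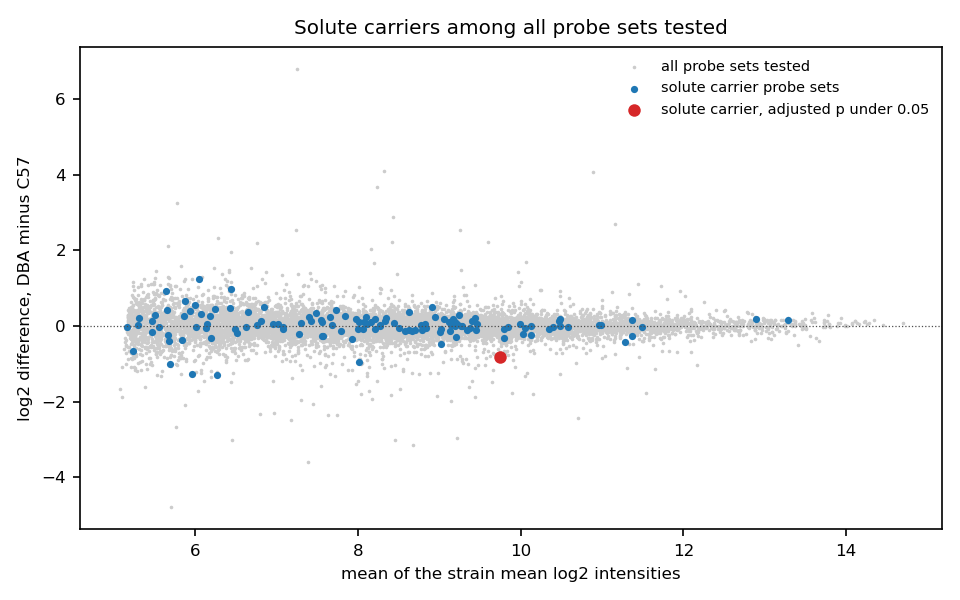
Log2 difference against mean log2 intensity for all 9316 tested probe sets (grey), with the solute carrier sets in blue and the called one in red. The carriers stay between -1.30 and 1.25, and the sets beyond -1 or 1 lie toward the dim end.

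The mitochondrial carrier family exchanges small molecules across the inner mitochondrial membrane, and a few of its members sit elsewhere. Slc25a17 is one of these: it lies in the peroxisome membrane and carries cofactors such as coenzyme A. Its single probe set, 97472_at, read 1169, 1076, 1280.1, 1076 and 1074 in C57 animals 1 to 5. In DBA animals 1 to 4 it read 628, 619, 760.4 and 585. Each DBA value lay below each C57 value, with a gap between the groups that was wider than the range within either. The intensity at this set was 1.76-fold lower in DBA (-0.81 ± 0.11, adjusted p = 0.00303). The call was kept in each of the 17 alternatives without a block on the animal number, with an adjusted p from 0.000392 to 0.0160, and was lost in the fit with that block (adjusted p = 0.0592). Slc25a17 had no other probe set on the array to set beside this one. How well the probes of this set match DBA sequence was not tested.

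The promoter of Slc25a17 is shown because it belongs to the one carrier that was called. It is the reference sequence of RefSeq (GRCm38.p6, chr15:81360766-81361015, minus strand), the 250 bases before the start of the gene, with a GC content of 61.2%. Capitals mark a GC box, GGGCGG on either strand, and a CCAAT box, CCAAT on either strand.
Slc25a17 promoter: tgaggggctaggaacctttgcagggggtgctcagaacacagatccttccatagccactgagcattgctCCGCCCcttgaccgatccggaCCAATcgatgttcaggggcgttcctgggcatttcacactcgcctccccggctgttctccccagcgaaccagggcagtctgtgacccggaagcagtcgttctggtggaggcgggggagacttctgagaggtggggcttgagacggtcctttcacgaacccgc
The window held 1 GC box, on the strand opposite to the gene and 182 bases before the start, and 1 CCAAT box on the gene's own strand at 161 bases. It held 0 matches to TATAAA on either strand. Among 32851 promoter windows of this length, 32.7% held the GC box, 33.8% the CCAAT box and 12.4% TATAAA, so the matches are common ones. The deposited data hold no sequence of either strain, and no DBA promoter was compared.

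The genes next to Slc25a17 were looked up for its surroundings. Of the 5 protein-coding neighbours on each side in RefSeq order, 3 were on the array and all 3 were tested. St13, a cochaperone of Hsp70 and the next gene, differed by 0.18 ± 0.10 at 97309_at and by 0.23 ± 0.13 at 97310_at (adjusted p = 0.543 and 0.522). Adsl, an enzyme of purine synthesis, differed by 0.18 ± 0.17, and Mrtfa, a coactivator of serum response factor, by -0.04 ± 0.11. None of these 4 sets passed at an unadjusted p under 0.05 in the limma fit or at the adjusted threshold, and the differences from Slc25a17 were not tested.

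The other 21 tested sets of the mitochondrial carrier family did not pass. Slc25a47 had the largest difference of the family by size (-1.30 ± 0.41, adjusted p = 0.191). It read 145, 117, 159, 96.1 and 101 in the C57 animals and 44, 24.4, 40.8 and 133 in the DBA animals. DBA animal 4 thus stood within the C57 range while the other DBA animals lay below it. Without DBA animal 4 the difference was -1.78 with an adjusted p of 0.00563, and over all settings the adjusted p ran from 0.00563 to 0.426. Slc25a10, the dicarboxylate carrier, read 143 to 218 in C57 and 184 to 311 in DBA (0.43 ± 0.17, adjusted p = 0.329).

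The adenine nucleotide carriers, which trade mitochondrial ATP for cytosolic ADP, had overlapping strains at each set. Slc25a4, the form of heart, muscle and brain, read 8702 to 10407 in C57 with a median of 9318, and 8925 to 12252 in DBA (0.15 ± 0.11, adjusted p = 0.679). Slc25a5 read 862 to 1981 and 1169 to 1705 at 100618_f_at (-0.02 ± 0.24) and 182 to 237 and 217 to 344 at 100619_r_at (0.26 ± 0.16). The suffix f_at marks sets that match families of similar sequences, so the first of these may not separate Slc25a5 from related copies. Its set 100617_at was too dim to test (strain means 21.8 and 17.1). Slc25a39, a carrier linked to mitochondrial glutathione, differed by 0.18 ± 0.11 (1122 to 1437 and 1390 to 1609). The set for Slc25a3, the mitochondrial phosphate carrier, was dim and scattered, at 29.4 to 149 in C57 and 40.3 to 152 in DBA (0.26 ± 0.55).

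Glucose enters brain through the facilitative carriers of family Slc2a, with Slc2a1 in vessel walls and glia and Slc2a3 in neurons. Slc2a1 read 943, 1193, 992, 886 and 967 in C57 and 796, 739, 791 and 832 in DBA. The groups did not overlap, with each DBA value lower, but the test was missed (1.26-fold lower, -0.33 ± 0.11, adjusted p = 0.211). Slc2a3 differed by 0.11 ± 0.11 at 92292_at (477 to 590 in C57, 539 to 682 in DBA) and by 0.00 ± 0.14 at 93804_at, whose sign turned when arrays were centred on their medians. Slc2a8, an intracellular hexose carrier, read 442 to 561 and 524 to 606 (0.18 ± 0.10), and Slc50a1, of the SWEET family, 586 to 712 and 703 to 818 (0.20 ± 0.10).

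Slc2a5 and Slc2a4 were dim. Slc2a5, the fructose carrier, read 119, 133, 99.7, 66.0 and 79.4 in C57 and 17.8, 85.0, 109.8 and 15.2 in DBA. DBA animals 1 and 4 thus lay below the C57 animals and the other DBA animals within their range, and the difference was -1.27 ± 0.59 (adjusted p = 0.430), or -1.76 to -0.81 without 1 animal in turn. Slc2a4, the insulin-regulated carrier, read 39.2 to 60.9 in C57 and 15.3 to 84.0 in DBA at 102314_at (-0.65 ± 0.41). Of the 10 tested sugar sets 0 passed by limma, with 1 at an unadjusted p under 0.05 and 0 with a trended, robust prior. The median difference of the class was 0.02.

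Amino acids and peptides had the lowest class median, -0.22, with 9 of 13 tested sets below 0, against 4496 of 9316 of all sets tested. By limma 0 passed, 1 had an unadjusted p under 0.05, and 0 passed with a trended, robust prior. That 1 was Slc15a2, a proton-coupled carrier of small peptides in choroid plexus and astrocytes. It read 300.4, 279.8, 267, 278 and 252 in C57 and 226, 228, 199.5 and 207 in DBA. The groups did not overlap (1.28-fold lower, -0.36 ± 0.10, adjusted p = 0.117).

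The heterodimer that carries large neutral amino acids across the vessel wall is made of Slc7a5 and the heavy chain Slc3a2. Slc3a2 read 2678 to 3117 in C57 with a median of 2896, and 2104, 2629, 1896 and 3205 in DBA (-0.26 ± 0.15, adjusted p = 0.574). Slc7a5 read 897 to 1354 and 857 to 1159 (-0.22 ± 0.14, adjusted p = 0.618). Both estimates were below 0 with overlapping groups. Slc38a2, a sodium-coupled carrier of small neutral amino acids, differed by -0.23 ± 0.20 at 94433_at (1037 to 1640.1 and 712 to 1214), and its other 3 sets were too dim to test. Slc7a3, a carrier of cationic amino acids, differed by 0.34 ± 0.19 and Slc38a4 by 0.37 ± 0.19. Slc3a1, the heavy chain of cystine transport in kidney, was the highest of the class at 0.92 ± 0.63, from 17.5 to 59.6 in C57 and 16.8 to 186 in DBA. It was 0.44 without DBA animal 3, the highest, and 1.59 without DBA animal 1, the lowest. The cystine-glutamate exchanger Slc7a11 was not tested (strain means 20.6 and 16.9).

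The marker list of blood vessels is set beside Slc2a1, Slc7a5 and Slc3a2, which vessels carry. Of its 10 genes 8 were measured, and 7 of 9 tested sets lay below 0 in DBA, against 4496 of 9316 of all sets tested. The median was -0.07, and the 2 sets above 0 were those of Kdr (0.34 ± 0.23) and Pecam1 (0.15 ± 0.16). By limma 0 passed and 2 (22.2%, against 12.2% of all sets tested) had an unadjusted p under 0.05. These were Vwf (103499_at, -0.34 ± 0.11), a clotting protein of endothelium, and Abcb1a (-0.53 ± 0.16), a drug efflux pump. Sums of a list, here and below, take the brightest probe set of each gene. The summed intensity of the list ran from 2311 to 2760 in C57 and from 2052 to 2643 in DBA (exact 2-sided permutation p = 0.286, 0.643 adjusted over 9 lists). Cldn5, the tight junction claudin of brain endothelium, differed by -0.07. The part of vessel content in the carrier values was not tested.

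**Figure D3:**
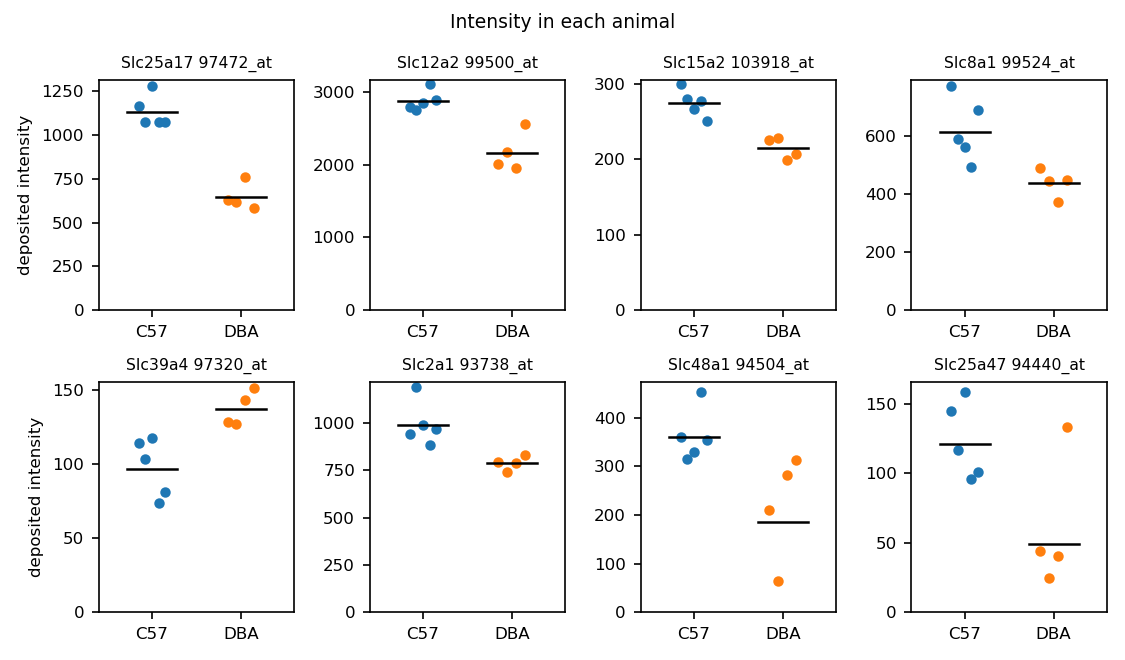
Deposited intensity in each of the 5 C57 and 4 DBA animals for the 7 carrier sets whose strains did not overlap and for Slc25a47, on axes that start at 0; black lines are geometric means. DBA is lower at 6 of the 7 and higher at Slc39a4 97320_at, and DBA animal 4 stands apart from the other DBA animals at Slc25a47. Of the 601 sets without overlap among all those tested, DBA is lower at 336 and higher at 265.

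Cation-chloride cotransporters set neuronal chloride, with Slc12a2 bringing chloride in and Slc12a5 taking it out. Slc12a2 read 2796, 2749, 2841, 3106 and 2893 in C57 and 2013, 2177, 1952 and 2561 in DBA. The groups did not overlap, and DBA animal 4 stood closest to C57. The geometric mean of Slc12a2 was 1.33-fold lower in DBA (-0.41 ± 0.11), with an adjusted p of 0.0990. It passed without DBA animal 4 (-0.49, adjusted p = 0.0396), with the dimmest 50% left out, where it lay at the threshold, and with a trended, robust prior (0.0287), and over the settings the adjusted p ran from 0.0287 to 0.403. Slc12a5 read 497, 443, 339, 334 and 427 in C57 and 557, 630.0, 725 and 422 in DBA. Its estimate was opposite in sign, with overlapping groups (1.42-fold, 0.51 ± 0.18, adjusted p = 0.266).

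Slc8a1, the sodium-calcium exchanger, read 771, 587, 561, 492 and 688 in C57 at 99524_at and 490.2, 446, 372 and 449 in DBA. Groups did not overlap, by a narrow margin (1.40-fold lower, -0.49 ± 0.15, adjusted p = 0.169). Its set 99525_at, at 11.8 to 82.9 in C57 and 19 to 75.4 in DBA, differed by 0.22 ± 0.57, and 93168_at was too dim to test. The bicarbonate carriers overlapped between the strains. Slc4a3, an anion exchanger of brain and heart, read 2102 to 2707 and 2390.4 to 3063 (0.15 ± 0.12), and Slc4a4, the sodium bicarbonate cotransporter of astrocytes, read 215 to 364 and 246 to 326 (0.10 ± 0.17). Slc4a1, the anion exchanger of red cells, read 40.2 to 101 and 41.4 to 50.2 (-0.23 ± 0.25). Slc20a1, a sodium phosphate carrier, differed by -0.02 ± 0.10. Of the 15 tested ion carrier sets 0 passed by limma, 3 had an unadjusted p under 0.05 (2 lower, 1 higher), 1 passed with a trended, robust prior, and the class median was 0.10.

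Slc12a2, Slc15a2 and Slc4a5, a bicarbonate carrier, are also carried by choroid plexus, the tissue that makes cerebrospinal fluid. Slc4a5 read 27.3 to 65.4 in C57 and 50.4 to 84.6 in DBA (0.40 ± 0.28, adjusted p = 0.662). The choroid plexus and ependyma list, of which 5 of 10 genes were measured, summed to 5264 to 6399 in DBA and 2503 to 4958 in C57, with no overlap, but did not pass after adjustment (exact 2-sided permutation p = 0.0238, 0.214 adjusted over 9 lists). Within it Ttr, transthyretin of choroid plexus, had the largest estimate (0.85 ± 0.30, adjusted p = 0.257). By limma 0 of its 5 tested sets passed, 1 had an unadjusted p under 0.05, and 4 lay above 0, against 4820 of 9316 of all sets tested. Beside it stand the estimates of Slc12a2 (-0.41) and Slc15a2 (-0.36), below 0, and of Slc4a5 (0.40) and Slc16a8 (0.46), above 0, none of which passed. C57 animal 1 was the lowest animal at Ttr (907), Slc4a5 (27.3) and Slc16a8 (30.7), and the highest at Slc15a2 (300.4). Without 1 animal in turn the difference ran from 0.15 to 0.55 at Slc4a5 and from 0.15 to 0.74 at Slc16a8. It ran from -0.49 to -0.36 at Slc12a2 and from -0.39 to -0.32 at Slc15a2. The part of this tissue's share in these values was not tested.

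Zinc is moved out of the cytosol by family Slc30a and into it by family Slc39a. Of 15 tested sets for 12 genes 0 passed by limma, 2 had an unadjusted p under 0.05, both higher in DBA, and 0 passed with a trended, robust prior. Slc30a1, the zinc exporter of the plasma membrane, read 88.4, 56.0, 57.8, 58.9 and 69.5 in C57 and 87.3, 82.7, 74.9 and 112 in DBA. C57 animal 1 lay among the DBA animals (0.44 ± 0.17, adjusted p = 0.314). Slc39a4, a zinc importer known from gut, read 114, 104, 118, 73.7 and 81.5 in C57 at 97320_at and 129, 127, 143 and 151 in DBA. These groups did not overlap (1.42-fold higher, 0.51 ± 0.16, adjusted p = 0.176), but its set 162284_r_at differed by -0.12 ± 0.25, so the sets of Slc39a4 gave no common direction.

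Slc30a3, which loads zinc into synaptic vesicles of glutamatergic neurons, overlapped between the strains. It read 2609 to 3242 in C57 with a median of 2969, and 2636, 2803, 2831 and 3142 in DBA (-0.03 ± 0.11, adjusted p = 0.939). Slc39a7, an importer of the endoplasmic reticulum and Golgi, differed by 0.01 ± 0.11 and Slc39a9 by -0.10 ± 0.13. Slc30a5, a zinc carrier of the secretory pathway, differed by -0.26 ± 0.21 at 94470_i_at and by 0.13 ± 0.39 at 94471_r_at. Slc39a1, an importer of the plasma membrane, read 539 to 772 in C57 and 385, 521, 1661 and 733.5 in DBA at 96832_at. There DBA animal 3 stood far above the others, and the difference of 0.12 ± 0.36 turned to -0.29 without that animal. The other set of Slc39a1, 100373_at, differed by 0.42 ± 0.23. The metallothioneins, which buffer zinc, did not pass either: Mt1 differed by 0.13 ± 0.16, Mt2 by -0.23 ± 0.12 and Mt3 by -0.12 ± 0.13.

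Of iron, copper and haem carriers 0 of 6 tested sets passed by limma, 1 had an unadjusted p under 0.05, and 0 passed with a trended, robust prior. That 1 was Slc48a1, which moves haem out of endosomes and lysosomes. It read 361, 316, 330.2, 453 and 355 in C57 and 210.3, 64.8, 281 and 313 in DBA, with no overlap and a wide spread in DBA (-0.95 ± 0.41, adjusted p = 0.376). DBA animal 2 was the lowest by far, and without 1 animal in turn the difference ran from -1.20 to -0.44. Slc11a2, the iron importer also called DMT1, differed by 0.05 ± 0.11 at 104451_at and 0.02 ± 0.15 at 102642_at. Slc31a1, the copper importer, differed by 0.05 ± 0.10 at 103845_at and 0.03 ± 0.12 at 101877_at. The signs at these 4 sets of Slc11a2 and Slc31a1 turned when single animals were left out.

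Monocarboxylate carriers move lactate, pyruvate and ketone bodies between vessels, glia and neurons. The 3 measured ones were dim, and 0 passed by limma at the adjusted or the unadjusted threshold, or with a trended, robust prior. Slc16a1 of vessels and glia read 75.6 to 115 in C57 and 79.1 to 114 in DBA (-0.07 ± 0.16). Slc16a7 of neurons read 21.3 to 65.8 and 56.1 to 97.9 (0.67 ± 0.32, adjusted p = 0.452). Slc16a8, known from retinal pigment epithelium and choroid plexus, read 30.7 to 159 and 78.5 to 125 (0.46 ± 0.41). Their chaperone Bsg, basigin, differed by 0.13 ± 0.14.

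Nucleosides pass the plasma membrane through family Slc29a, and nucleotide sugars enter the Golgi through family Slc35. Slc29a2 read 26.6, 76.6, 49.8, 75.4 and 117 in C57 and 157, 142, 125 and 79.5 in DBA (0.98 ± 0.39, adjusted p = 0.330). Slc29a1, which takes up adenosine, differed by 1.25 ± 0.53 at 161687_r_at (15.4 to 135 in C57, 75.1 to 148 in DBA), the highest difference among the members. Its other set 95733_at differed by 0.13 ± 0.14, so the large value was not repeated within the gene. Slc35b2, which brings the sulfate donor PAPS into the Golgi, differed by -0.30 ± 0.14, Slc35a1, the CMP-sialic acid carrier, by 0.17 ± 0.13, and Slc35b1 by 0.03 ± 0.13. Of 12 tested sets 0 passed by limma, 2 had an unadjusted p under 0.05, and 0 passed with a trended, robust prior.

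Organic ion and vitamin carriers had 16 tested sets, of which 0 passed by limma at the adjusted or the unadjusted threshold, or with a trended, robust prior. Slc22a17, a receptor for lipocalin 2, was bright, at 5841 to 8219 in C57 and 7027 to 9001 in DBA (0.19 ± 0.13). Slc23a2, the ascorbate carrier that supplies neurons with vitamin C, read 1881 to 2267 and 1829 to 2381 (0.02 ± 0.11). Slc5a6, which takes up biotin and pantothenate, differed by 0.25 ± 0.17, and Slc22a4, a carrier of ergothioneine, by -1.02 ± 0.49, from 50.1 to 102 in C57 and 12.5 to 92.7 in DBA. The difference of Slc22a4 was -0.50 without DBA animal 3, the lowest, and -1.47 without DBA animal 1, the highest.

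Lipid, bile acid and choline carriers had 10 tested sets, of which 0 passed by limma, 1 had an unadjusted p under 0.05, and 0 passed with a trended, robust prior. That 1 was Slc27a2, which takes up and activates fatty acids (31.4 to 65.5 in C57, 63.9 to 93.8 in DBA; 0.57 ± 0.22, adjusted p = 0.319). Slc33a1, the acetyl-CoA carrier of the endoplasmic reticulum, differed by -0.40 ± 0.28, and Slc10a3 by 0.24 ± 0.21. Classes went mostly by family and its letter, and 4 genes matched none of them, Slc35g3 of the Slc35 family included. Of these 4, Slc66a2 differed by 0.30 ± 0.12 (adjusted p = 0.358) and Slc35g3 by -0.07 ± 0.31. Slc51a, a subunit of a bile acid and steroid carrier, differed by 0.26 ± 0.36 and was thus not counted with the bile acid carriers. The 3 genes that are not carriers did not pass: the scaffolds Slc9a3r2 (0.25 ± 0.13) and Slc9a3r1 (0.14 ± 0.13), and Slc4a1ap (-0.13 ± 0.18).

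**Figure D4:**
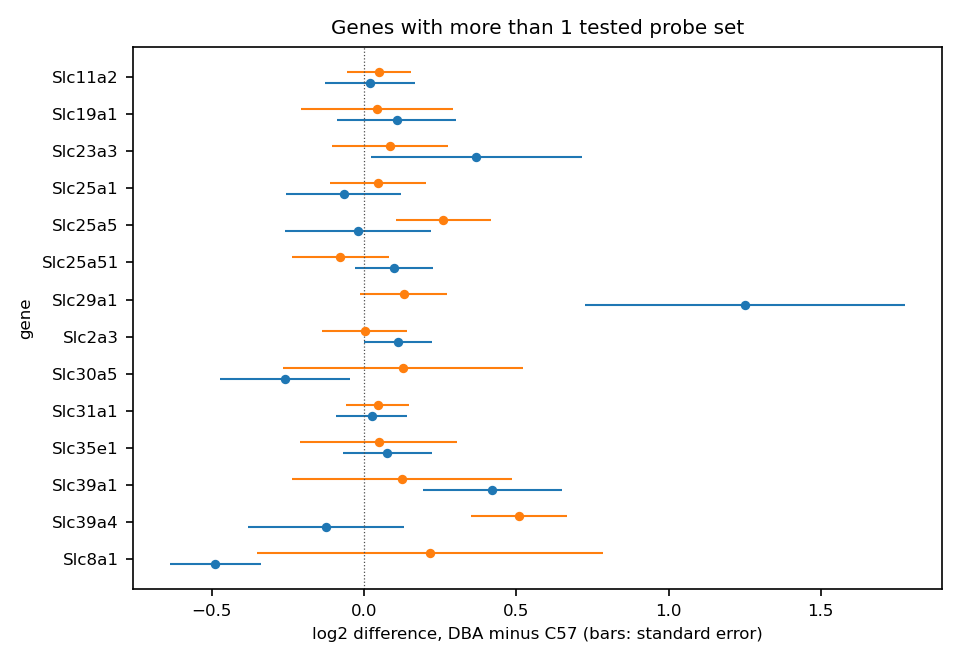
Log2 difference (DBA minus C57) with its standard error at each tested probe set of the 14 genes that had more than 1, with colours telling sets of a gene apart. Signs agreed at 8 genes and differed at 6, and the widest gap is that of Slc29a1, at 1.12.

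Probe sets of the same gene were compared within the members. Of 14 genes with more than 1 tested set, 8 had the same sign at each set and 6 did not, and the median gap between sets was 0.23. With 2 tested sets per gene, signs that vary at random also agree at many genes, so the count does not show agreement. Of these 14 genes, 0 had a set past the threshold.

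Genes that work with the carriers were set beside them: ion pumps, chaperones, carbonic anhydrases, kinases, hexokinases, metallothioneins and mitochondrial channels. Of 31 such genes 23 were measured, and of their 25 tested sets 0 passed by limma, against 2.50% of all sets tested. At an unadjusted p under 0.05, 4 (16%) differed, against 12.2% of all sets. With a trended, robust prior 2 passed, against 3.18% of all sets. The list includes Slc9a3r1 and Slc9a3r2, which are also members. The smallest p was that of Car2, a carbonic anhydrase that supplies bicarbonate (0.43 ± 0.11, adjusted p = 0.0929). Wnk1, a kinase that controls Slc12 cotransport, differed by -0.44 ± 0.11 at 94003_at (adjusted p = 0.0939). Its dimmer sets differed by -0.22 ± 0.25 at 160739_at and by -0.13 ± 0.23 at 161270_i_at (adjusted p = 0.810 and 0.893). Atp2b2, a calcium pump of the plasma membrane, differed by 0.38 ± 0.12 and Atp1b2, a sodium pump subunit, by 0.34 ± 0.14.

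Neuronal markers, which check the tissue label, were present, with summed intensities of 42066 to 45153 in C57 and 42487 to 50138 in DBA (exact 2-sided permutation p = 0.627). Of the other marker lists, 1 of 12 oligodendrocyte sets passed, Mobp of myelin at 99046_at (-0.84 ± 0.12, adjusted p = 0.00416), and 10 of the 12 lay below 0. At an unadjusted p under 0.05, 5 of the 12 differed, each lower in DBA, and 3 passed with the trended, robust prior. Over all sets tested 2.50% passed, 12.2% had an unadjusted p under 0.05 and 3.18% passed with that prior. Of all sets tested, 4496 of 9316 lay below 0. The other Mobp sets differed by -0.11 ± 0.19 at 100536_at, -0.22 ± 0.16 at 99047_at and -0.35 ± 0.13 at 99048_g_at. None of these other Mobp sets passed by limma (adjusted p = 0.882, 0.670 and 0.302). Of 9 microglia sets 2 passed, the complement genes C1qb at 96020_at (-0.85 ± 0.12, adjusted p = 0.00343) and C1qc (-0.65 ± 0.13, adjusted p = 0.0318). At an unadjusted p under 0.05, 3 differed, 2 lower and 1 higher, the higher one being Ctss (0.32 ± 0.12). The second C1qb set, 162276_i_at, did not pass (-0.58 ± 0.31, adjusted p = 0.517). Of the 9 sets 6 lay below 0 and 3 above. The C1qc call was lost with array median centring (adjusted p = 0.107), with no filter on dim sets and when 1 of 6 of the animals was left out, and its adjusted p ran from 0.00816 to 0.147 over the settings. The calls of C1qc, C1qb and Mobp were lost with the block on animal number. These lists are not carriers, and their sums overlapped between the strains: 21014 to 28715 and 20854 to 24690 for oligodendrocytes, 5897 to 7153 and 5938 to 6327 for microglia. Since a sum takes the brightest set of each gene, Mobp entered by 100536_at, and the called set 99046_at was not part of the oligodendrocyte sum. Of 11 astrocyte, 3 blood and 5 pituitary sets 0 passed, with 1, 1 and 0 at an unadjusted p under 0.05. For Gapdh, the control sets at the gene's end read 0.816 to 0.875 of those at its beginning in C57 and 0.735 to 0.799 in DBA, without overlap, a ratio that reflects RNA integrity. The same ratio overlapped between the strains for b-actin (1.42 to 1.88 and 1.43 to 1.57), the transferrin receptor (3.26 to 4.00 and 3.05 to 3.62) and pyruvate carboxylase (1.48 to 2.32 and 1.48 to 1.71). The part of cell content or RNA integrity in the value of Slc25a17 was not tested.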

How the data were processed

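The authors deposited intensities on a linear scale for 12488 probe sets on 9 arrays. Per the labels, cRNA was made from 5 ug of total RNA by the array maker's standard procedure. How probes were summarised and scaled is not given in the sources used here. The 66 control probe sets were left out of the tests. Values under the 1st percentile of positive values (1.70) were raised to it (0.977% of values) and log2 was taken. Scaling was left as deposited, since array medians spanned 0.31 (log2). The strain comparison used limma 3.58.1 (lmFit, then eBayes) under R 4.3.3, and was tested on simulated data. Figures were drawn with matplotlib 3.10.9.

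Named genes are each member past the threshold, the 3 genes of each substrate class with the smallest p by their brightest set, and 18 measured genes of a fixed list of 24. This gave 46 genes, and 14 more (Slc39a4, Slc38a2, Slc4a3, Slc4a5, Slc20a1, Slc25a3, Slc23a2, Slc39a7, Slc2a4, Slc2a8, Slc25a39, Slc35b1, Slc4a1 and Slc3a1) were chosen after their values were seen. Neighbours of Slc25a17 and genes of the other lists named without a call were also chosen after their values were seen. The members and lists were chosen with earlier results of these data known. Substrate classes were assigned mostly by family and its letter. Labels do not say whether the arrays share a day of processing. The limma p-values set a strain difference against the spread within strains of these 9 samples, drawn toward that of all probe sets tested. Numbers in the titles were not taken to pair animals of different strains. Same-numbered animals' deviations from their strain means correlated at -0.167 to -0.00700, but so few pairs cannot settle whether the numbers pair arrays. The 18 lettered arrays of another platform were not used here. The number of arrays limits the precision.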

Additional observations from a re-analysis of the deposited data

Results flagged for a closer look

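In a test for a single animal far from the rest of its strain, 8 of 142 strain groups of the named probe sets stood out, where chance gives about 1 in 20. C57 animal 1 was low at 3 sets: Slc4a3 (2102 against 2529 to 2707 in the others), Slc4a5 (27.3 against 60.7 to 65.4) and Slc25a39 (1122 against 1342 to 1437). C57 animal 3 was low at Slc2a3 92292_at (477 against 583 to 590), and C57 animal 2 at Slc39a9 (340.5 against 440.4 to 482). DBA animal 2 was high at Slc9a3r1 (1848 against 1350.2 to 1410.1) and low at Slc29a1 95733_at (258 against 365 to 377). DBA animal 4 was high at Slc16a1 (113.5 against 79.1 to 82.6).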

How the results depend on the processing

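Slc25a17 was called in 17 of 18 alternatives, and its difference ran from -0.89 to -0.77 without 1 animal in turn. The count of called carrier sets was 1 and became 2 with the dimmest 50% left out and with a trended, robust prior, where calls over the platform were 259 and 296, and 0 with the replicate block, where Slc25a17 had -0.83 (adjusted p = 0.0592) and calls over the platform went from 233 to 73. Without 1 animal in turn it ran from 1 to 3, with 3 without DBA animal 4 (Slc25a17, Slc12a2 and Slc25a47). With 1 probe set per gene, 154 sets were called over the platform. The median difference of the carriers stayed between -0.00 and 0.04 without 1 animal. C1qc lost its call when C57 animal 2, 4 or 5 or DBA animal 1, 2 or 3 was left out, and with array median centring, no filter on dim sets and the block. Mobp and C1qb lost theirs with the block.

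Signs turned at sets whose difference was at most 0.26 in size. Array median centring turned Slc2a3 93804_at to -0.0064, and the replicate block turned Slc11a2 102642_at to -0.0063, Slc11a2 104451_at to -0.0018 and Slc25a3 93506_at to -0.035. Without 1 animal in turn the difference moved by over 1.5 times or turned at 49 of 68 tested named sets, and the sign changed at 19 of the named sets. Their ranges were -0.072 to 0.11 (Slc11a2 102642_at), -0.0018 to 0.089 (Slc11a2 104451_at), -0.20 to 0.0069 (Slc16a1), -0.052 to 0.020 (Slc20a1), -0.048 to 0.079 (Slc23a2), -0.056 to 0.58 (Slc25a3), -0.18 to 0.12 (Slc25a5 100618_f_at), -0.10 to 0.12 (Slc2a3 93804_at) and -0.081 to 0.0047 (Slc30a3). They were -0.23 to 0.31 (Slc30a5 94471_r_at), -0.029 to 0.074 (Slc31a1 101877_at), -0.0036 to 0.090 (Slc31a1 103845_at), -0.047 to 0.070 (Slc35b1), -0.30 to 0.083 (Slc35g3), -0.29 to 0.41 (Slc39a1 96832_at), -0.30 to 0.013 (Slc39a4 162284_r_at), -0.039 to 0.049 (Slc39a7), -0.022 to 0.47 (Slc51a) and -0.19 to 0.61 (Slc8a1 99525_at). The cause was not tested. Low signal over background limits the dim sets.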
